A study of Rattus norvegicus with 11 samples.

Results

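Fibronectin and the matricellular proteins were followed in obstructed rat bladder through 10 genes, namely fibronectin (Fn1), the thrombospondins Thbs1, Thbs2, Thbs3 and Thbs4, tenascin C (Tnc), periostin (Postn), osteopontin (Spp1), SPARC (Sparc) and the SPARC-like protein hevin (Sparcl1). The genes were taken by symbol from a table of 18507 genes, and 10 of 10 were found. RNA sequencing had been carried out on bladder tissues of female adult Sprague-Dawley rats at week 4 and week 5 after surgery. In partial bladder outlet obstruction (PBOO), a suture was tied around the bladder neck and urethra over a catheter, which was then withdrawn. By the study's methods, the controls, labelled normal, received the abdominal incision alone. The groups held 3 PBOO and 3 normal samples at week 4 and 2 PBOO and 3 normal samples at week 5, where the columns of the normal samples are named adult. All week 4 column names end in Input, and no week 5 column name does. The labels name neither the layer of the bladder wall nor the rat behind each sample, so the p-values measure the spread between samples. Levels are given in FPKM, fragments scaled to the length of the transcript and to all fragments mapped, so that genes can be compared per length.

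Fibronectin forms the fibrils on which other matrix proteins assemble and is bound by cells through integrins. Matricellular proteins are secreted into the matrix but do not build its framework. They bind cells, growth factors, proteases and collagen, are low in many resting adult tissues, and are known to be induced in wounds and in mechanically loaded organs. In the bladder wall, smooth muscle cells and fibroblasts are the cells best known to make them, and macrophages are a known source of osteopontin.

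Several samples stood apart before any member was compared. The summed FPKM of 9 smooth muscle markers was 997 to 1866 in PBOO bladder tissues at week 5, against 25005 to 29409 in the normal samples of that week. At week 4 it was 51355 to 82641 in PBOO and 25706 to 27865 in normal bladder. The markers moved unequally there, and 3 of the 9 were called as higher (Actg2, Cnn1 and Des), with a median log2 fold change of 0.66. Actg2 went from a mean of 4421 to 22070 FPKM, while Smtn (log2 fold change 0.02) and Lmod1 (0.21) overlapped. The sum of 9 fibroblast markers was 128 to 182 in PBOO at week 5 against 1571 to 2004 in normal bladder. That of 9 urothelial markers was 6395 to 7072 in PBOO and 6102 to 7453 in normal bladder at week 5, a sum over markers that moved in opposite directions, since 4 of the 9 fell and 1 rose. At week 4 the urothelial sum was 2914 to 3667 in PBOO against 4914 to 6037 in normal bladder. Krt7 and Upk3b, like the fibroblast marker Col6a3, were listed at 0 in all week 4 samples, so these sums do not compare across weeks. Of 7 urothelial markers tested at week 4, 1 was called as lower, beside 2.45% of all genes, and 0 after median-ratio scaling. In 4 of the 7 every PBOO sample was below normal bladder, a share that was not computed over all genes. At week 4, normal replicate 1 had a fibroblast sum of 1088, against 4054 and 4125 in the other two normal samples. In PBOO at week 4 this sum was 3850 to 4540. Between 5578 and 5798 genes were listed at 0 in each week 4 sample and 1715 to 2329 in each week 5 sample, so week and library set cannot be told apart and levels were not tested across weeks. Over all genes tested at week 4, 278 rose and 277 fell, and this split became 410 and 121 after median-ratio scaling, which moved the all-gene median of the log2 fold change from -0.25 to -0.01.

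In normal bladder the 10 genes covered a wide range of levels. The level of Sparc, whose protein binds collagen and guides fibril assembly, was 522, 1239 and 1513 FPKM in the 3 normal samples of week 4 and 808, 855 and 702 FPKM in those of week 5. Sparcl1, which encodes a relative of SPARC found in vessels and muscle, had 695, 891 and 875 FPKM at week 4 and 489, 504 and 514 FPKM at week 5. These genes were the highest of the 10 in all 6 normal samples, and at week 4 their ranges overlapped. The level of Postn, a matrix protein of fibroblasts that takes part in collagen cross-linking, came next in all 6 normal samples, at 227, 181 and 150 FPKM at week 4 and 66.1, 73.6 and 60.2 FPKM at week 5.

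Fn1, Tnc and Thbs2 formed a middle group. At week 4 their normal levels were 36.9 to 54.9, 34.5 to 46.0 and 24.6 to 53.3 FPKM, and the 3 ranges overlapped. Week 5 gave 23.7 to 29.1, 18.1 to 39.1 and 29.2 to 38.6 FPKM, with Thbs1 at 14.6 to 30.4 FPKM in the same range. Thbs1 at week 4 and Thbs3 at both weeks lay lower, at 4.93 to 13.2 FPKM for Thbs1, 9.52 to 11.5 FPKM for Thbs3 at week 4 and 7.62 to 8.78 FPKM for Thbs3 at week 5. The ranges of Thbs1 and Thbs3 overlapped at week 4. Thbs4 had 1.82 to 2.81 FPKM at week 4 and 1.34 to 2.17 FPKM at week 5. Spp1 was the lowest of the 10 in all normal samples, at 0.615 to 1.01 FPKM at week 4 and 0.0805 to 0.271 FPKM at week 5.

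**Figure D1:**
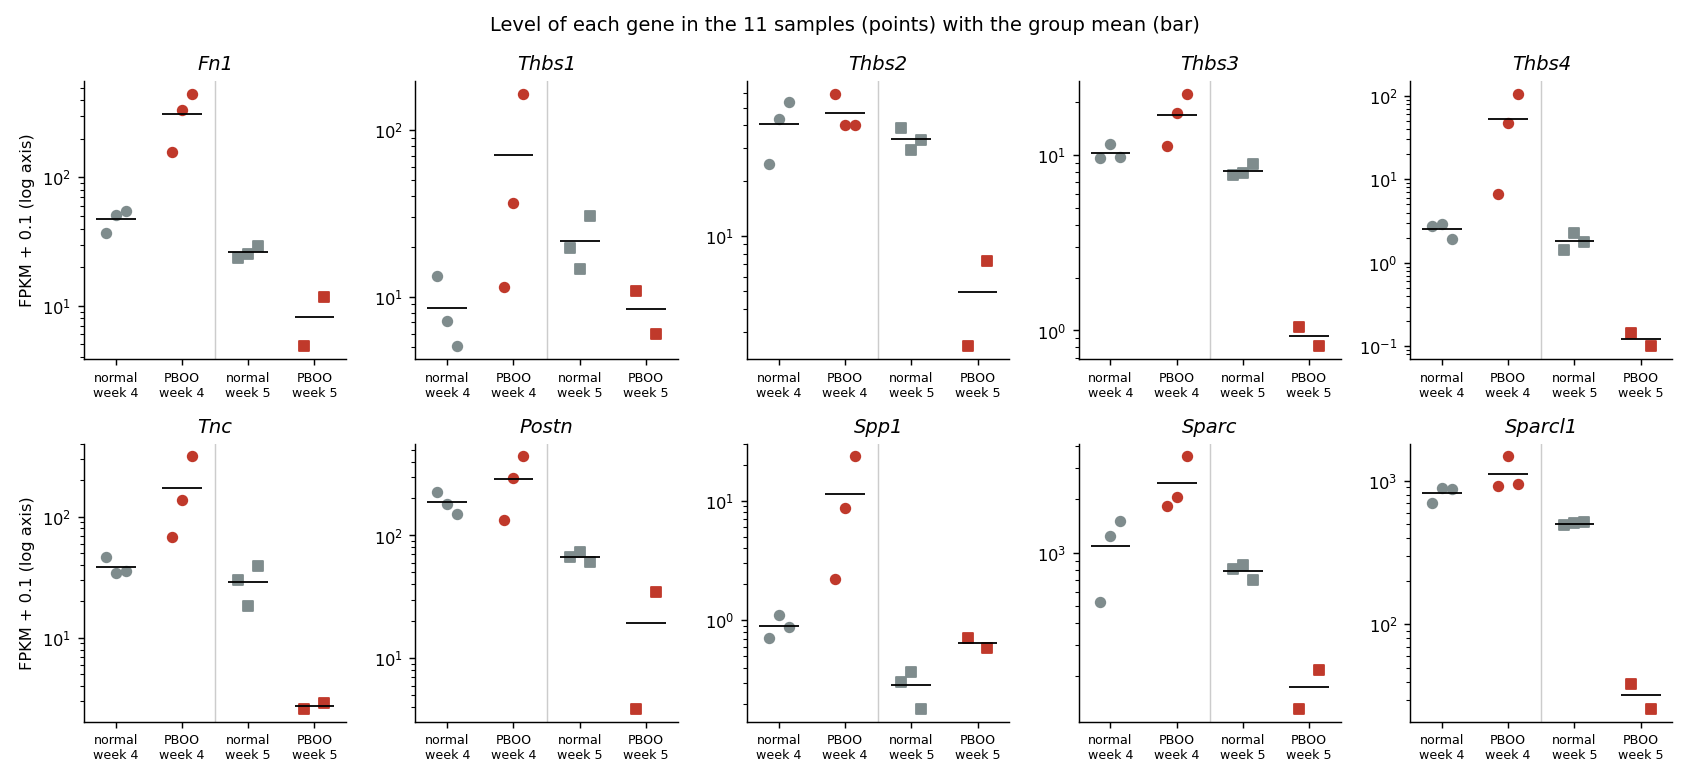
Level of each of the 10 genes in each sample, in FPKM with 0.1 added on a log axis, by group. Each point is 1 sample and each bar a group mean. The PBOO points of week 4 lie above those of normal bladder for Fn1, Thbs4, Tnc, Spp1, Sparc and Sparcl1, and the PBOO points of week 5 lie below for all genes but Spp1.

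Of the 10 genes, all tested, 6 were upregulated at week 4 (unadjusted p under 0.05 and at least 2-fold in limma on log2(FPKM + 0.1)), namely Fn1, Thbs1, Thbs4, Tnc, Spp1 and Sparc, and 0 fell. Among all 11320 genes tested, 2.46% rose and 2.45% fell by the same rule. The median log2 fold change of the 10 genes was 1.58, against -0.25 over all genes tested. After adjustment over all genes, 1 of the 10 (Fn1) was still called, where 0.265% of all genes were called as higher. In 6 of the 10 (Fn1, Thbs4, Tnc, Spp1, Sparc and Sparcl1) the PBOO samples all lay above the normal ones, which held for 6.63% of all genes. The summed smooth muscle markers, of which 3 of 9 were called, were also above normal bladder in all 3 PBOO samples. The summed urothelial markers were below, and the part of these markers in the rise of the 6 genes was not tested. Of the 11320 log2 fold changes, that of Thbs4 was the 6th from the highest, that of Spp1 the 19th, that of Fn1 the 31st and that of Thbs1 the 40th. Because 0.1 is added before the logarithm, fold changes of genes with low levels come out too small.

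Fn1 had 36.9, 51.3 and 54.9 FPKM in normal bladder and 157, 335 and 449 FPKM in PBOO at week 4. All 3 PBOO samples were above all normal samples, and the lowest of them was 3.28-fold above the normal mean. The log2 fold change was 2.61 ± 0.38 (SE, limma, adjusted p = 0.0483). With any 1 of the 6 samples left out it was 2.28 to 3.04 and stayed called by the unadjusted rule. The adjusted call was lost in 5 of these 6 fits, with adjusted p = 0.0841, 0.168 and 0.213 without normal replicates 1, 2 and 3 and 0.183 and 0.0934 without PBOO replicates 2 and 3, and was kept without PBOO replicate 1.

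Of the 4 thrombospondins, Thbs1 and Thbs4 were called at week 4. Thbs4 belongs, like Thbs3, to the pentameric thrombospondins and is known from tendon, muscle and nerve. Its level was 2.65, 2.81 and 1.82 FPKM in normal bladder and 6.65, 47.3 and 106 FPKM in PBOO. The groups did not overlap, but PBOO replicate 1 was far nearer to normal bladder than the other two. The log2 fold change was 3.70 ± 0.91 (SE, limma, adjusted p = 0.0718), and 2.85 to 4.83 with any 1 sample left out.

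Thbs1, a trimeric thrombospondin that binds CD36 and CD47 and activates latent TGF-beta, had 13.2, 7.07 and 4.93 FPKM in normal bladder and 11.4, 36.2 and 166 FPKM in PBOO. PBOO replicate 1 lay within the normal range and PBOO replicate 3 was the highest. The log2 fold change was 2.39 ± 0.90 (SE, limma, adjusted p = 0.128). Leaving out 1 sample ended the call in 4 of 6 fits, and without PBOO replicate 3 the log2 fold change was 1.38 (limma adjusted p = 0.226).

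Thbs2, the other trimeric thrombospondin, had 24.6, 43.1 and 53.3 FPKM in normal bladder and 59.5, 39.9 and 40.2 FPKM in PBOO. The groups overlapped, and the log2 difference of 0.25 ± 0.30 (SE, limma, adjusted p = 0.564) turned to -0.07 without normal replicate 1. Thbs3 had 9.52, 11.5 and 9.70 FPKM in normal bladder and 11.1, 17.2 and 22.3 FPKM in PBOO. It missed the 2-fold threshold, with a log2 difference of 0.66 ± 0.25 (SE, limma, adjusted p = 0.129).

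Of the 10 genes, 8 had a promoter in the RefSeq table of the rat assembly GRCr8 (Fn1 and Thbs2 had none there). The 250 bases before the transcript start that the table uses were searched on both strands for CATTCC, the core of the sites that TEAD factors bind together with YAP, because YAP is known to respond to stretch. The motif was present in 3 of the 8 promoters, those of Thbs4, Thbs1 and Sparc, and in 12.1% of all 33469 promoters. Those 3 genes rose at week 4, but Tnc and Spp1 also rose and had no match. A link between the motif and the rise was not tested. For Thbs4, Thbs1, Sparc and Sparcl1 the window ends where the annotated gene begins. For Thbs3 and Tnc it partly overlaps the annotated gene. For Postn and Spp1 it lies within the annotated gene, so that it does not show the bases before the gene. The 3 promoters with the motif are printed 5′ to 3′ on the strand of the gene, with the match in capitals. Thbs1 holds it on the opposite strand, so it reads GGAATG. The regions are chr2:25760346-25760595 (minus strand) for Thbs4, chr3:125510000-125510249 (plus strand) for Thbs1 and chr10:40038817-40039066 (minus strand) for Sparc.
Thbs4: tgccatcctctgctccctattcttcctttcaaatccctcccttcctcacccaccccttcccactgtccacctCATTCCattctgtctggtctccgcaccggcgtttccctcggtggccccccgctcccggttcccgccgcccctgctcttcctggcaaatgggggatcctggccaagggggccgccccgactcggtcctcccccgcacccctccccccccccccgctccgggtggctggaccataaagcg
Thbs1: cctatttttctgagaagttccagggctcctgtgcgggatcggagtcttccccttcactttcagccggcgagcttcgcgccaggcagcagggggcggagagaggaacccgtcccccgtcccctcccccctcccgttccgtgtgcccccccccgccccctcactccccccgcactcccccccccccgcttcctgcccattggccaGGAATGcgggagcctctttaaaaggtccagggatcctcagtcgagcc
Sparc: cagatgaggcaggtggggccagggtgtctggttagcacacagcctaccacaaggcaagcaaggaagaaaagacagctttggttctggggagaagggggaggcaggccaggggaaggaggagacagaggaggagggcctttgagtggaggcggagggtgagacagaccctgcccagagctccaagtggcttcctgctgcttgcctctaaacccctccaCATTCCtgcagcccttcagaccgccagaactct
The matches end 173 bases before the start in Thbs4, 42 in Thbs1 and 28 in Sparc. The AP-1 site TGANTCA was in 0 of the 8 promoters and 6.34% of all, the CRE site TGACGTCA in 0 and 1.59%, and the CArG box, the serum response factor site, in 0 and 1.497%. TATAAA was found in Postn, Spp1 and Tnc (12.9% of all promoters) and the GC box GGGCGG in Thbs1, Thbs3, Thbs4 and Tnc (30.5%). A match of letters is a description of the sequence and does not show that a factor binds there.

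Tnc encodes a hexameric protein that is known to appear in matrix under tension and during repair. It had 46.0, 34.5 and 35.4 FPKM in normal bladder and 68.4, 138 and 315 FPKM in PBOO at week 4. All PBOO samples were higher, with a log2 fold change of 1.91 ± 0.50 (SE, limma, adjusted p = 0.0772), and the call held with any 1 sample left out (1.34 to 2.45). The level of Postn was 227, 181 and 150 FPKM in normal bladder and 133, 294 and 440 FPKM in PBOO. PBOO replicate 1 lay below all normal samples and the other two above them, and the log2 difference of 0.49 ± 0.41 (SE, limma, adjusted p = 0.414) was not called.

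Spp1 encodes a phosphoprotein ligand of integrins and CD44, made by macrophages, by bone cells and by smooth muscle cells in culture and injury. It had 0.615, 1.01 and 0.776 FPKM in normal bladder and 2.10, 8.53 and 23.4 FPKM in PBOO at week 4. The groups did not overlap, and the log2 fold change was 3.11 ± 0.78 (SE, limma, adjusted p = 0.0733), or 2.30 to 4.01 with any 1 sample left out. The summed FPKM of 10 macrophage markers was 609 to 1038 in PBOO and 161, 753 and 803 in normal bladder, so that these ranges overlapped. Of the 10 macrophage markers, 1 rose (Gpnmb, from 79.4 ± 12.1 to 188 ± 79.4 FPKM, SD, n = 3 each, limma adjusted p = 0.0844) and 0 fell, and their part in the level of Spp1 was not tested.

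Sparc rose from 522, 1239 and 1513 FPKM to 1831, 2055 and 3495 FPKM, and all PBOO samples were above all normal ones. The log2 fold change was 1.25 ± 0.43 (SE, limma, adjusted p = 0.113). Normal replicate 1, the sample with the low fibroblast markers, was also the lowest in Sparc, and without it the change was 0.79, under 2-fold. Without PBOO replicate 3 it was 0.97, and the call was lost there too. Sparcl1 had 913, 1478 and 948 FPKM in PBOO against 695, 891 and 875 FPKM in normal bladder. Its groups did not overlap either, but the log2 difference of 0.41 ± 0.22 (SE, limma, adjusted p = 0.224) was not called.

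The PBOO samples of week 4 differed among themselves in a shared way. Replicate 3 was the highest of the 3 in 8 of the 10 genes, the exceptions being Thbs2 and Sparcl1, and replicate 1 was the lowest in 9 of them, all but Thbs2. Among all genes tested, replicate 3 was the highest in 20.4% and replicate 1 the lowest in 23.6%. Relative to the normal mean, Thbs4 was at 2.74-fold in replicate 1, 19.5-fold in replicate 2 and 43.6-fold in replicate 3. The corresponding folds of Spp1 were 2.62, 10.6 and 29.2, and those of Tnc were 1.77, 3.59 and 8.16. Thbs1 stood at 1.35-fold, 4.31-fold and 19.7-fold. The summed smooth muscle markers were at 51355, 62430 and 82641 FPKM in replicates 1, 2 and 3 and the macrophage markers at 609, 915 and 1038 FPKM, so both had the same order as Thbs4, Spp1, Tnc and Thbs1. The order was not particular to these markers. The neutrophil, platelet and skeletal muscle marker sums also had it, and the urothelial sum and that of Schwann cell and neuron markers had the reverse. The summed fibroblast markers ranged from 3850 to 4540 FPKM, with the highest value in replicate 1. The sum of 7 skeletal muscle markers ranged from 363 to 3076 FPKM in them, against 177 to 299 in normal bladder. That sum was carried by Acta1 (112 ± 9.79 to 1260 ± 1309 FPKM), which rose with Tnnt3, while the other 5 markers were not called (Ckm 58.2 ± 6.52 and 45.8 ± 12.1 FPKM) and the median log2 fold change of the 7 was -0.38. In these samples the part of these markers in the spread was not tested.

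**Figure D2:**
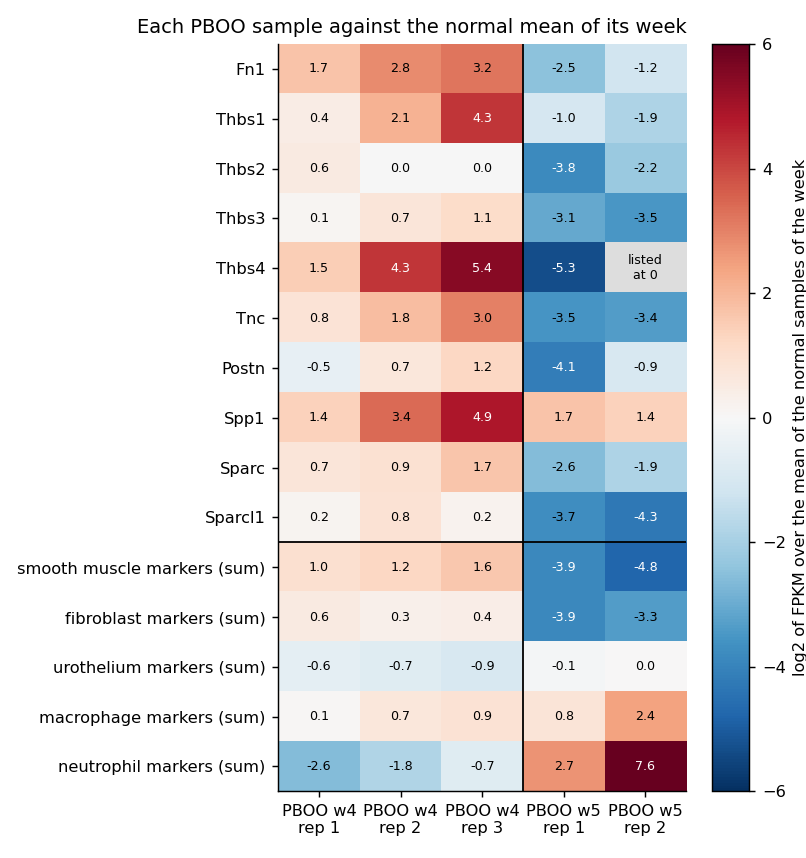
Log2 ratio of each PBOO sample to the mean of the normal samples of the same week, for each of the 10 genes and, below the line, for the summed markers of 5 cell types (colour, which is limited to 6 in either direction, and printed value). At week 4 replicate 3 holds the highest value in 8 of the 10 gene rows, and at week 5 both samples are below the normal mean for all genes but Spp1.

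At week 5 the direction was the opposite. Of the 9 genes tested, 9 fell in PBOO bladder tissues (unadjusted p under 0.05 and at least 2-fold) and 0 rose, where 12.6% of all 13685 genes fell and 9.82% rose. After adjustment 8 of the 9 were called, against 11.4% of all genes, with Postn the exception (limma adjusted p = 0.0789). At the 4-fold threshold 7 of the 9 were called, all but Fn1 and Thbs1, against 6.88% of all genes. In all 9 both PBOO samples lay below all normal samples, which held for 25% of all genes. The median log2 fold change of the 9 was -2.97, against 0.12 over all genes. Spp1, with a mean under 0.5 FPKM over the 5 samples, did not enter the test. Thbs4 passed this filter only through the normal samples.

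Sparcl1 fell from 489, 504 and 514 FPKM in normal bladder to 38.4 and 25.6 FPKM in PBOO (log2 fold change -3.997 ± 0.19, SE, limma, adjusted p = 0.000287). The PBOO samples held 7.64% and 5.10% of the normal mean. Sparc fell from 808, 855 and 702 FPKM to 130 and 217 FPKM, by 2.22 ± 0.25 on the log2 scale (SE, limma, adjusted p = 0.00266). It was still the highest of the 10 genes in both PBOO samples, with Sparcl1 second in replicate 1 and Postn second in replicate 2.

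The 4 thrombospondins fell by unequal amounts. Thbs3 went from 7.62, 7.83 and 8.78 FPKM to 0.951 and 0.711 FPKM (log2 fold change -3.14 ± 0.20, SE, limma, adjusted p = 0.000482). Thbs2 went from 38.6, 29.2 and 33.2 FPKM to 2.40 and 7.23 FPKM (-2.97 ± 0.45, adjusted p = 0.00682). Both genes were far below normal bladder in each PBOO sample. Thbs4 was at 1.34, 2.17 and 1.67 FPKM in normal bladder, at 0.0430 FPKM in PBOO replicate 1 and listed at 0 in PBOO replicate 2. With levels this low its log2 fold change followed the pseudocount, at -3.91 ± 0.44 (SE, limma, adjusted p = 0.00272) with 0.1, -1.41 with 1 and -6.21 with 0.01.

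Thbs1 fell the least, from 19.5, 14.6 and 30.4 FPKM to 10.7 and 5.88 FPKM. The PBOO samples held 49.8% and 27.3% of the normal mean, and the log2 fold change was -1.36 ± 0.39 (SE, limma, adjusted p = 0.0472). The call was lost without PBOO replicate 2 (log2 fold change -0.93) and in the fit over all 11 samples (limma adjusted p = 0.274).

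Fn1 fell from 23.7, 25.1 and 29.1 FPKM to 4.73 and 11.6 FPKM (log2 fold change -1.79 ± 0.37, SE, limma, adjusted p = 0.0186). Tnc fell from 30.0, 18.1 and 39.1 FPKM to 2.48 and 2.81 FPKM (-3.34 ± 0.33, adjusted p = 0.00187), and its PBOO samples lay close together. Those of Postn lay far apart, at 3.76 and 34.5 FPKM, against 66.1, 73.6 and 60.2 FPKM in normal bladder. The log2 fold change of Postn was -2.52 ± 0.87 (SE, limma, adjusted p = 0.0789), with -0.94 when PBOO replicate 1 and -4.11 when PBOO replicate 2 was left out, and 1 of 5 such fits kept the call.

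Spp1 was the exception in direction. It had 0.205, 0.271 and 0.0805 FPKM in normal bladder and 0.606 and 0.483 FPKM in PBOO at week 5, and the groups did not overlap. Without the filter on low values its log2 difference was 1.23 ± 0.40 (SE, limma, adjusted p = 0.0814). With the depth of the libraries unknown, no counting error can be given for values this low. The sum of the macrophage markers was 310 and 971 FPKM in PBOO and 106 to 221 FPKM in normal bladder. Of the 10 markers, 2 were called as higher (Cd68 and Lyz2) and 0 as lower, beside 9.82% and 12.6% of all genes. Lyz2 went from 32.4 ± 14.6 to 320 ± 317 FPKM (SD). Cd163 and Mrc1 had log2 differences of -0.39 and -0.53, not called. The part of these markers in the level of Spp1 was not tested.

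The fall of these genes went along with that of the markers of the cells known to make them. Of 9 smooth muscle markers 9 fell at week 5 (median log2 fold change -4.42; Myh11 from 2240 ± 161 to 89.0 ± 30.6 FPKM, SD, n = 3 and 2), and of 9 fibroblast markers 9 fell (median -3.52; Pdgfra from 7.08 ± 1.58 to 3.11 ± 1.76 FPKM). Col1a2, a fibrillar collagen gene, went from 198 ± 13.9 to 11.2 ± 0.168 FPKM. Of 9 urothelial markers 4 fell, among them Upk2 (1704 ± 140 to 324 ± 4.95 FPKM) and Krt20 (66.9 ± 27.0 to 0.661 ± 0.394 FPKM), and 1 rose, the basal keratin gene Krt5 (134 ± 43.1 to 1820 ± 1471 FPKM), with a median log2 fold change of -0.76. Upk3a was not called, at 1706 ± 129 and 1746 ± 127 FPKM. Of 5 neutrophil markers tested 5 rose, beside 9.82% of all genes. Csf3r, Cxcr2 and Retnlg had normal means of 0.0939, 0.0272 and 0 FPKM. These genes passed the filter only through the PBOO samples, so their rise was nearly fixed in advance. The summed levels were 14.9 FPKM in PBOO replicate 1 and 446 FPKM in PBOO replicate 2, against 0.605 to 3.84 FPKM in normal bladder. In bulk tissue, fewer cells of a type and less RNA per cell cannot be told apart. The part of the change in markers in the fall of the 9 genes was not tested.

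Because of these marker levels, each gene was also divided by the summed FPKM of the fibroblast or the smooth muscle markers of its sample, a description that was chosen after seeing the data. Per 1000 FPKM of fibroblast markers at week 5, the level of Fn1 was 12.1 to 18.5 in normal bladder and 37.1 and 63.6 in PBOO. Thbs1 was at 7.28 to 19.4 and at 32.3 and 83.9, and Sparc at 412 to 447 and at 1019 and 1193. On this scale 4 of the 10 genes (Fn1, Thbs1, Spp1 and Sparc) were above normal bladder in both PBOO samples, 1 (Thbs4) was below, and 5 overlapped. Both marker sums were far lower in PBOO at week 5, so a gene with an unchanged level comes out above normal bladder. The share of all genes above on these scales was not computed, so the counts are no result about the 10 genes. Per smooth muscle marker, 6 were above, 1 was below and 3 overlapped at week 5. At week 4, 1 gene was above per fibroblast marker, Fn1 with 34.5 to 109 in PBOO against 12.7 to 33.9 in normal bladder, and 9 overlapped. The normal value of 33.9 was that of replicate 1, and the other two normal samples had 12.7 and 13.3. Per smooth muscle marker at week 4, 3 were above (Fn1, Thbs4 and Spp1), 3 were below (Thbs3, Postn and Sparcl1) and 4 overlapped. There the marker sum was higher in PBOO, so a gene with an unchanged level comes out below. Fn1 lay above normal bladder by both divisions at both weeks. Per fibroblast marker at week 4 the margin was small, with 34.5 in the lowest PBOO sample against 33.9. At week 5 the lower marker sums raise every value divided by them, and the FPKM of Fn1 itself was lower in PBOO. No trait of Fn1 is read from these divisions.

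The effect of PBOO differed between the weeks for 9 of the 10 genes, and in this difference week and library set cannot be told apart. The difference was tested as the effect at week 5 minus the effect at week 4 in 1 limma fit over all 11 samples, with p under 0.05, and all 9 differences were negative, where 15.7% of all 11296 genes tested had a lower and 34.6% a higher effect at week 5. After adjustment the same 9 of the 10 were called, against 13.5% of all genes. The difference of Thbs4 was -7.61 ± 1.17 (SE, adjusted p = 0.000913), from an effect of 3.70 at week 4 to one of -3.91 at week 5. Its size followed the pseudocount, at -4.73 with 1 and -9.96 with 0.01, and Tnc had -4.86 with 1, so Thbs4 was not the widest with a pseudocount of 1. With 0.1 added, Tnc had -5.25 ± 0.69 (adjusted p = 0.000403). Sparcl1 and Fn1 had -4.41 ± 0.31 (adjusted p = 7.42e-06) and -4.39 ± 0.59 (adjusted p = 0.000432), although Sparcl1 had no called change at week 4. Spp1 was higher in PBOO at both weeks, and its difference of -1.88 ± 1.05 (SE, limma, 95% interval -4.20 to 0.45, adjusted p = 0.173) was not called. Both effects being part of the difference, it says nothing of a path from one week to the next in the same rats.

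**Figure D3:**
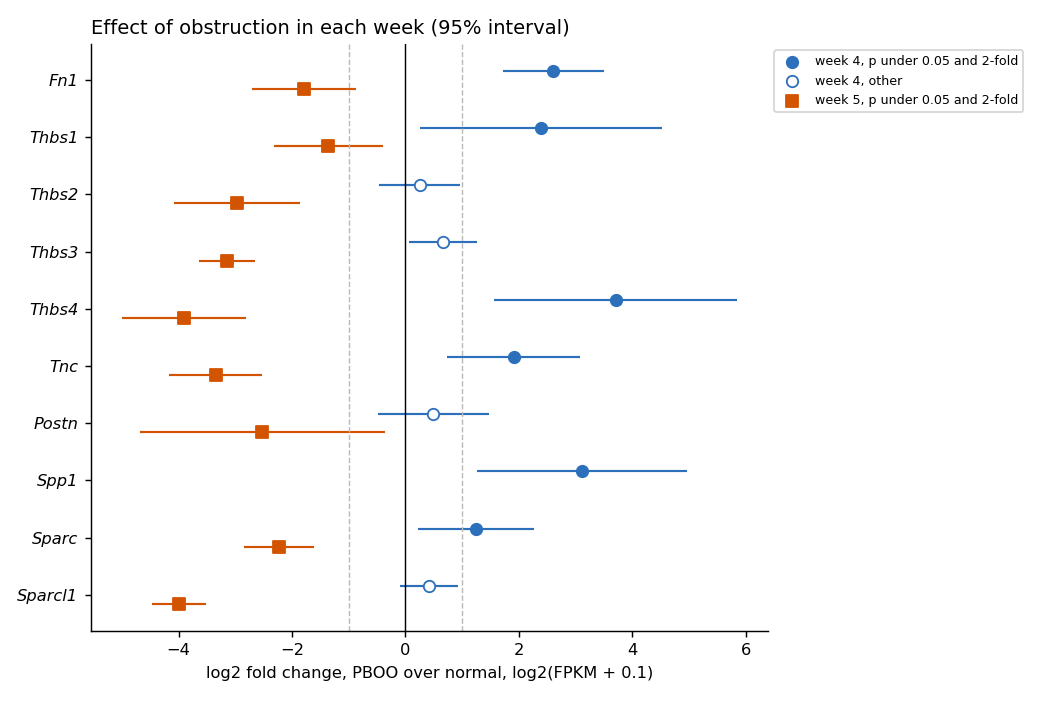
Log2 fold change of PBOO against normal bladder at week 4 and at week 5 for each of the 10 genes, with 95% confidence intervals from limma. Filled points passed the unadjusted threshold and the 2-fold one, and dashed lines mark a 2-fold change. The week 4 points lie between 0.25 and 3.70, the week 5 points between -1.36 and -3.997 for the 9 genes tested, and Spp1 has a week 4 point only.

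The make-up of the thrombospondins was compared as the share of each in the summed FPKM of the 4 genes. Thbs2 led in all 3 normal samples of week 4, with 64.2% ± 13.8 (SD, n = 3, 49.2% to 76.4%), and Thbs4 made up 4.08% ± 1.36 (2.61% to 5.29%). In PBOO at week 4 the share of Thbs4 was 24.3% ± 14.5 (7.50% to 33.6%), above that of every normal sample, and that of Thbs2 was 35.8% ± 28.3 (12.03% to 67.1%), which overlapped. Thbs1 went from 14.8% ± 10.3 to 29.4% ± 18.7, and these ranges also overlapped. The share of Thbs3, at 6.69% to 12.6%, was below its normal range of 13.9% to 19.0%. With 3 samples against 3, an exact permutation test cannot go below 0.10, so no p is given for the shares. At week 5 Thbs1 held 42.5% and 76.0% in PBOO against 27.1% to 41.0% in normal bladder, and Thbs4 held 0.305% and 0% against 1.99% to 4.04%. Shares of a sum are tied to each other, so a higher share of 1 gene lowers the others.

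**Figure D4:**
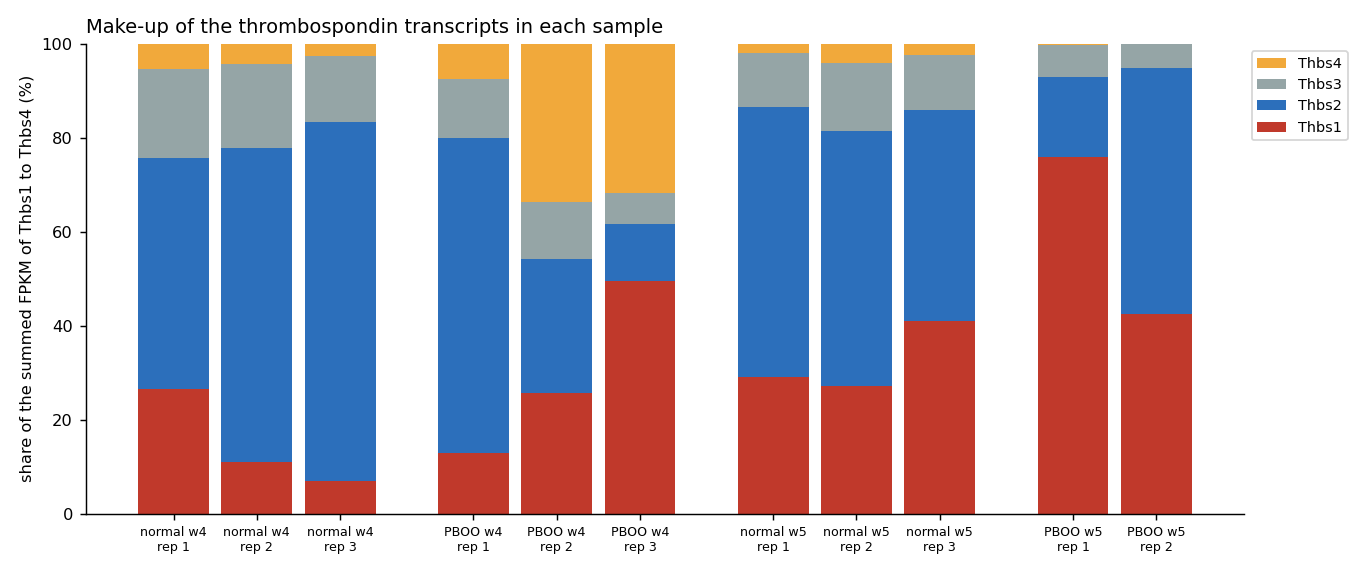
Share of Thbs1, Thbs2, Thbs3 and Thbs4 in their summed FPKM in each sample, in percent. Bars are single samples and add to 100%. The segment of Thbs4 is wider in the PBOO samples of week 4, where it reaches 33.6%, than in any normal sample.

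Other matricellular genes were read from a list of 30, of which 28 were in the table. At week 4, 16 were tested, of which 2 rose, beside 2.46% of all genes, and 0 fell, with a median log2 fold change of 0.10. Those were Fstl1, a follistatin-like relative of SPARC (129 ± 9.70 to 299 ± 59.5 FPKM, SD, n = 3 each, log2 fold change 1.19, limma adjusted p = 0.0483), and Lgals1, which encodes galectin-1 (692 ± 141 to 1796 ± 969 FPKM, 1.26, adjusted p = 0.0925). The CCN genes Cyr61, Ctgf, Nov, Wisp1, Wisp2 and Wisp3 and the fibulin gene Fbln2 were listed at 0 in all 6 week 4 samples, although Cyr61 reached 655 and Ctgf 142 FPKM at week 5. These zeros are reported as listed values only. At week 5, 21 of the list were tested, and 17 fell and 1 rose, beside 12.6% and 9.82% of all genes. The median was -2.23, against 0.12 over all genes. Among those that fell with non-overlapping groups were the testican gene Spock2 (-3.83), the fibulin gene Fbln5 (-3.64) and the small leucine-rich proteoglycan gene Ogn. Ogn had 4.31 ± 0.966 FPKM in normal bladder and 0.0426 ± 0.0603 FPKM in PBOO, so it passed the filter only through the normal samples, and its fitted value of -4.99 depends on the pseudocount. Lgals3, whose product galectin-3 is made by macrophages and epithelia, rose from 502 ± 101 to 1373 ± 369 FPKM (1.44, limma adjusted p = 0.0113).

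Receptors for these proteins were read from a list of 25 genes. At week 4, 20 were tested, 5 rose and 0 fell, beside 2.46% and 2.45% of all genes, with a median log2 fold change of 0.03. Itga5, the alpha subunit of the main fibronectin receptor, had 57.0 ± 13.9 FPKM in normal bladder and 283 ± 156 FPKM in PBOO (SD, n = 3 each, log2 fold change 2.20, limma adjusted p = 0.0521). Itga8, another fibronectin receptor subunit that also binds osteopontin and tenascin C, went from 2.43 ± 0.601 to 11.9 ± 3.54 FPKM (2.24, adjusted p = 0.0483). Cacna2d1, a calcium channel subunit to which thrombospondins bind, rose from 21.8 ± 5.88 to 98.8 ± 15.8 FPKM (2.20, adjusted p = 0.0478). Itga9, Itgav, Itga3, Itga2 and Stab1 were listed at 0 in all week 4 samples. At week 5, 22 were tested, and 7 fell, led by Itgb3 (log2 fold change -3.37), Cacna2d1 (-3.12) and the thrombospondin receptor Cd36 (-3.04). Another 3 rose, namely Itgb8 (2.79), the osteopontin and hyaluronan receptor Cd44 (1.44) and the urokinase receptor Plaur (1.22). Among all genes 12.6% fell and 9.82% rose, so the number of receptors that rose was near that share. Itgb8, with a normal mean of 0.484 FPKM, passed the filter only through the PBOO samples. Cd36, with a PBOO mean of 0.235 FPKM, passed it only through the normal ones.

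The genes with the most similar pattern were found by the root mean square difference from each gene over the 11 samples, on log2(FPKM + 0.1) centred within each week. Nearest to Fn1 were Lox, which encodes the collagen cross-linking enzyme lysyl oxidase (difference 0.39), Scg5 (0.40) and Il17b (0.41). Lox had a log2 fold change of 2.10 at week 4 and -1.69 at week 5. Nearest to Thbs4 were the skeletal and cardiac alpha-actin genes Acta1 (0.51) and Actc1 (0.65), followed by Nptx2 (0.76). Inhba (0.58) and Diaph3 (0.60) were among the nearest to Spp1, and Pcolce, Mgp and Plod2 to Sparc (0.19, 0.24 and 0.24). Pcolce and Plod2 encode proteins of collagen processing and cross-linking, and Mgp the matrix Gla protein. All 11 points of each pair come from the same libraries, so the likeness is a description.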

How the data were processed

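Total RNA was extracted from bladder tissues with TRIzol, and TruSeq libraries were sequenced in pairs on a HiSeq4000. Per the methods, the authors trimmed reads with SeqPrep and Sickle, mapped them with HISAT2 (2.0.4), assembled transcripts with StringTie (1.3.1) and deposited FPKM values made with featureCounts. The submitters' processing notes name mm10, a mouse build, whereas the table holds rat symbols (36 starting with RT1- and 0 with H2-), so the build behind the values is uncertain. The table holds no counts, its low values showed no common step of whole reads, depth is unknown, and no counting interval is given. Column sums were 424961 to 564343.

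Values were used as deposited, with no further scaling. Each week was fitted with limma 3.58.1 in R 4.3.3 (trend on the mean, two-sided) on log2(FPKM + 0.1) keeping genes that averaged 0.5 FPKM or more. The difference between weeks was fitted over 11 samples, with genes detected in both weeks. Adjusted p-values (Benjamini-Hochberg) are over all genes tested. The labels do not pair the samples. Deviations of samples with the same replicate number in their titles correlated at 0.15, -0.02 and 0.23 at week 4 and at -0.0008 and 0.12 at week 5. The column names number the samples otherwise. The column of PBOO replicate 2 at week 5 is named DO3, and this sample correlated at -0.16 with normal replicate 3. At week 4 the PBOO columns carry other numbers than the normal ones. The values 0.23 and 0.15 were the highest among the week 4 pairs, so pairing by number is not settled. Named list genes are up to 3 per direction and week, by fold change, among called genes averaging 1 FPKM or more with non-overlapping groups, and the first listed markers; for 4 members, the 3 nearest genes, of which 1 is not reported here. The members and lists were chosen with earlier results of these data known. The fits were first tested on simulated data. Other pseudocounts, filters, scalings, thresholds, a replicate block and fits without 1 sample were tried. Python 3.11.15, pandas 2.3.3, numpy 2.4.6 and matplotlib 3.10.9 were used for tables and figures.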

Additional observations from a re-analysis of the deposited data

Results flagged for a closer look

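The effect of PBOO at week 5 minus that at week 4 was called in limma for 9 of the 10 genes, with week and library set not told apart. On the log2 scale the difference was -4.39 for Fn1, -3.75 for Thbs1, -3.22 for Thbs2, -3.81 for Thbs3, -7.61 for Thbs4, -5.25 for Tnc, -3.01 for Postn, -3.47 for Sparc and -4.41 for Sparcl1. For Fn1, Thbs1, Thbs4, Tnc and Sparc, a called rise at week 4 stood against a called fall at week 5. For Thbs2, Thbs3, Postn and Sparcl1, the fall at week 5 alone was called. The difference of Postn rested on PBOO replicate 1 of week 5, being -1.43 without it, where the unadjusted p was no longer under 0.05. The smooth muscle and fibroblast markers moved in the same direction as these genes at week 5, and their part in the differences was not tested. No group held enough samples for a test of single samples that stand apart.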

How the results depend on the processing

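Under the alternative pseudocounts, scalings, filter and variance settings, 6 members rose at week 4. With adjusted p-values 1 rose, and with 1 sample left out 4 to 6 did, the lowest without PBOO replicate 3. At week 5, 9 members fell, or 8 with adjusted p-values, in the fit over all 11 samples and with any 1 sample left out. Without the filter on low values 1 member (Spp1) rose at week 5. The difference between weeks was called for 8 to 10 members with 1 sample left out and for 10 with a pseudocount of 1. No member that was called changed direction. A replicate block changed no member's call, and the same-numbered samples did not all correlate above 0.1. Normal replicate 2 of week 4 correlated best with PBOO replicate 3 (0.09).

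Over all genes at week 4, 278 rose and 277 fell. The number that rose was 172 without PBOO replicate 3 and 30 with adjusted p-values. The number that fell was 136 with a pseudocount of 1, 147 after quantile normalization, 637 without PBOO replicate 1, 180 without PBOO replicate 3 and 12 with adjusted p-values. Effects higher at week 5 numbered 3904, or 2539 with median-ratio scaling. The 4-fold threshold left 72 that rose and 30 that fell at week 4 and 491 and 941 of 1344 and 1727 at week 5, and no fold threshold gave 652, 2969 and 3365, with 2572 falling at week 5. With adjusted p-values 1 of 2 other matricellular genes, 2 of 5 receptors and 0 of 1 macrophage markers rose at week 4, and the macrophage count at week 5, 2, was 4 with the block and 5 without PBOO replicate 1. Depth is unknown, so for Thbs4 and Spp1 at week 5, with levels under 1 FPKM in PBOO, the precision cannot be stated.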
